A study of Caenorhabditis elegans with 12 samples.

Results

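The genes described here are the fbxa and fbxc classes of F-box genes of Caenorhabditis elegans, followed in young adults of wild type and of 2 fer-1 mutant strains. A gene was a member if a probe set of the array was paired with that gene alone under a symbol of the form fbxa or fbxc followed by a number. Where a gene had several such probe sets, the member was chosen by a measured value, the highest mean over the 12 arrays. This gave 215 members among 17118 genes with a probe set of their own, 171 of them fbxa genes and 44 fbxc genes. The wild type was strain N2, the first mutant was fer-1(hc1ts) in strain BA1 and the second was fer-1(hc24ts) in strain BA24. fer-1 encodes a ferlin that sperm need to fuse their vesicles with the plasma membrane, and both alleles are temperature-sensitive. All 3 strains, the wild type included, hatched from hypochlorite-treated cultures as synchronised L1 larvae and grew at 25 °C. Each sample was a pool of adults collected by a sorter whose gate was set against L4 and younger animals, and whole-worm total RNA went onto 1 array per sample, with 4 arrays per genotype. Each genotype was represented by 1 strain, so that genotype and other differences between strains cannot be told apart.

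F-box proteins carry the substrates of SCF ubiquitin ligases. The F-box binds a Skp1-related adaptor, which docks on the cullin CUL-1 and the RING protein RBX-1, while the rest of the F-box protein holds the substrate that is to be ubiquitinated. Nematodes of this genus have a greatly expanded set of F-box genes, many of them in arrays of adjacent copies, and substrates are unknown for most. The fbxa products pair the F-box with an FTH domain, also found in FOG-2, a protein that hermaphrodites need to make sperm. FBXA-75 and FBXA-158 are known to work with the cullin CUL-6 and the adaptors SKR-3, SKR-4 and SKR-5 in the intracellular pathogen response of the intestine.

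Values are log2 expression values, 1 per probe set and array, and a log2 difference is the difference of 2 group means of 4 arrays. A probe set was tested if it reached log2 4 on at least 4 of the 12 arrays, and values under 4 are called background here. Of the members, 67 were tested: 48 of the 171 fbxa genes and 19 of the 44 fbxc genes. P-values come from limma's moderated test, adjusted over the 11833 probe sets tested in each comparison, and members below an adjusted p of 0.05 are called higher or lower. Both mutants were compared with the same 4 wild type arrays, so their results are not independent of each other. In RNA of whole worms, fewer cells of a type and less RNA per cell cannot be told apart.

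The labels could be set against marker genes only in part. The probe set for fer-1 itself gave background values in every group, with mean log2 values of 1.46 (wild type), 1.48 (hc1) and 1.47 (hc24), and so does not check the genotypes. Several stage and tissue markers differed between the groups. Summed linear signal over 12 genes of L4 larvae and molting epidermis was 15432 to 19622 in wild type, 1704 to 2232 in hc1 and 1088 to 1238 in hc24, and all 9 tested were lower in both mutants. The sum over 8 early embryonic genes was 427 to 460 in wild type, 4134 to 4809 in hc1 and 2407 to 2937 in hc24, and 4 of the 5 genes tested were higher in both mutants. end-1 of this list was lower (log2 differences -0.48 and -0.53), and end-3, ceh-51 and vab-7 were at background on all arrays. Over 14 sperm genes the sum was 744 to 2003 for wild type and 12036 to 14627 for hc24, whereas within hc1 replicate 2 stood apart at 10312 beside 568 to 1050 on the other 3 arrays. spe-9, spe-11, gsp-3 and gsp-4 of this list were at background on all arrays. All msp probe sets tested have the x suffix, which marks probes shared with other sequences, so they can share signal. spe-6, the other gene tested, was higher in both mutants (log2 differences 0.95 and 1.07). Of 12 oocyte and eggshell genes, 12 were higher in hc1 and 7 in hc24, and of 7 body wall muscle genes tested, 7 were lower in hc1 and 5 in hc24, where unc-54 was higher. Of 8 intestine genes, 0 were higher and 3 lower in hc1, and 1 was higher and 6 lower in hc24. Over all probe sets tested, 43.3% were higher and 25.9% lower in hc1, and 37.7% were higher and 21.7% lower in hc24. Their part in the differences described below was not tested.

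The fbxc class was mostly higher in both mutants, while the fbxa class moved in both directions. In hc1 against wild type, 12 of the 19 fbxc genes tested were higher and 5 were lower, beside the 43.3% and 25.9% of all probe sets. In hc24 the fbxc counts were 12 higher and 4 lower, beside 37.7% and 21.7% of all probe sets. The same 12 fbxc genes were higher in both mutants, which share their controls. The share of all probe sets higher in both mutants was not computed. The median log2 difference over the fbxc genes was 0.83 in hc1 and 0.67 in hc24, against 0.14 and 0.12 over all probe sets. Of the 48 fbxa genes tested, 20 were higher and 11 lower in hc1, and 20 were higher and 8 lower in hc24, shares close to those of all probe sets. After cyclic loess the hc1 counts were 13 higher and 11 lower, beside 3185 higher and 4060 lower of all 11833 probe sets in place of 5125 and 3069. The fbxa median was 0.05 in hc1 and 0.17 in hc24. The hc1 median has no settled sign, since it was -0.03 after cyclic loess and 0.30 after median centring of the arrays.

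Changes of at least 2-fold were counted on the fitted log2 differences and again with group means under log2 4 held at 4, as for the folds given as "at least". In hc1, 9 fbxc genes were at least 2-fold higher and 1 was at least 2-fold lower by either count. The fbxa counts were 7 and 4 on the fitted differences and 5 and 3 with low means held. Of all probe sets, 6.38% were that much higher and 10.8% that much lower in hc1, or 6.19% and 10.3% with low means held. In hc24 the fbxc counts were 7 and 2, or 6 and 2 with low means held, and the fbxa counts were 7 and 4, or 5 and 3. The shares of all probe sets in hc24 were 5.27% and 9.52%, or 4.95% and 9.04%.

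A gene can pass the filter through the group in which it is high, so the counts were repeated over members with every group mean at or above log2 4. Of 15 such fbxc genes, 9 were higher and 4 lower in hc1, and 9 were higher and 3 lower in hc24. Of 42 such fbxa genes, 18 were higher and 9 lower in hc1, and 18 were higher and 6 lower in hc24. Among these members, fitted rises and falls of at least 2-fold numbered 6 and 1 in hc1 and 4 and 2 in hc24 for fbxc, and 5 and 2 in each mutant for fbxa. No shares of all probe sets were computed under this restriction, so the restricted counts have no matched background. Without the restriction, 43.3% of all probe sets were higher and 25.9% lower in hc1, and 37.7% and 21.7% in hc24. For comparison, the related fbxb class, over all genes tested, had 44 of 47 higher and 0 lower in hc1, with a median of 2.58. In hc24 the fbxb counts were 43 higher and 0 lower, with a median of 1.60. The fbxb counts were not restricted by group mean. They include genes that passed the filter through mutant arrays alone, such as fbxb-90 and fbxb-49, with wild type means of 1.9 and 2.09. They are therefore not matched to the restricted fbxa and fbxc counts. No test between the classes was made.

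**Figure D1:**
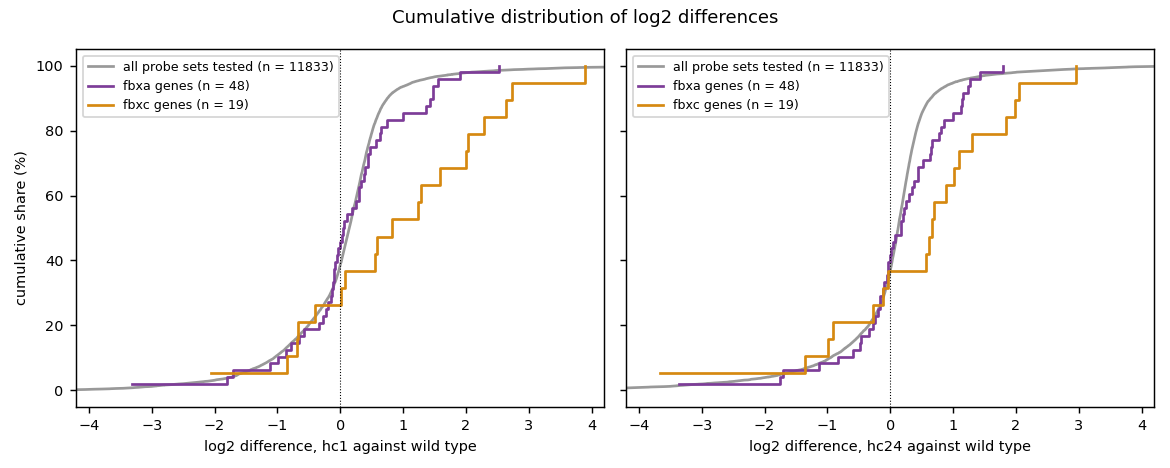
Cumulative share, in percent, of log2 differences in hc1 (left) and hc24 (right) against wild type for the 48 fbxa genes, the 19 fbxc genes and all 11833 probe sets tested; the far tails of all probe sets lie beyond the axis. The fbxc line runs to the right of the others over most of its length, with medians of 0.83 and 0.67, while the fbxa line runs close to that of all probe sets on its left side.

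The largest rise of either class was that of fbxc-28, a protein-coding gene on chromosome II. Its log2 values were 5.88, 5.87, 5.65 and 6.14 in wild type, 9.79, 9.51, 10 and 9.81 in hc1 and 8.90, 8.89, 8.63 and 8.93 in hc24. No arrays of any 2 genotypes overlapped. The difference was 3.89 ± 0.12 (SE) in hc1, a 14.8-fold rise (adjusted p = 6.29e-11), and 2.95 ± 0.12 in hc24, a 7.73-fold rise (adjusted p = 6.89e-10).

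fbxc-18, also on chromosome II, had values of 5.38, 5.56, 6.64 and 5.91 in wild type, 8.56, 8.43, 8.95 and 8.47 in hc1 and 7.72, 8.02, 7.77 and 7.95 in hc24. Every mutant array lay above every wild type array. It was 6.63-fold higher in hc1 (log2 difference 2.73 ± 0.22, adjusted p = 4.81e-07) and 3.99-fold higher in hc24 (1.99 ± 0.22, adjusted p = 9.41e-06). fbxc-32 was at 7.93, 8.20, 8.23 and 8.19 in wild type, 10.17, 9.96, 10.33 and 10.07 in hc1 and 9.64, 9.51, 9.28 and 9.30 in hc24. The 3 groups were again separate, and the folds were 3.99 in hc1 (adjusted p = 9.05e-09) and 2.46 in hc24 (adjusted p = 5.27e-07). The fbxc-32 probe set carries the s suffix, which marks probes that can match several transcripts, so related F-box genes may share in its signal.

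A further set of fbxc genes on chromosome II was at background in wild type and above it in the mutants. These genes, fbxc-21, fbxc-25 and fbxc-39, passed the filter through mutant arrays alone, so filter and test rest on the same high values. fbxc-21 measured 3.61, 3.54, 3.00 and 2.56 in wild type, 5.82, 5.74, 5.63 and 6.08 in hc1 and 5.09, 4.98, 5.69 and 5.17 in hc24. With wild type held at log2 4, it was at least 3.52-fold higher in hc1 (adjusted p = 6.21e-07) and at least 2.35-fold higher in hc24 (adjusted p = 7.02e-06). fbxc-25 was at 3.54, 3.50, 3.76 and 3.35 in wild type, 6.17, 5.39, 5.40 and 5.29 in hc1 and 5.47, 5.52, 5.28 and 5.26 in hc24. The mutants overlapped each other and neither overlapped wild type, with rises of at least 2.96-fold in hc1 (adjusted p = 5.92e-07) and at least 2.6-fold in hc24 (adjusted p = 1.62e-06).

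fbxc-39 read 3.70, 3.75, 3.75 and 3.40 in wild type, 6.03, 5.79, 5.74 and 6.15 in hc1 and 4.53, 5.09, 3.94 and 5.39 in hc24. It was at least 3.8-fold higher in hc1 (adjusted p = 5.73e-06) and at least 1.67-fold higher in hc24 (adjusted p = 0.00241), where 1 array stayed at background. Its neighbour fbxc-42 had 6.19, 7.10, 6.41 and 6.47 in wild type, 8.33, 7.83, 8.40 and 7.98 in hc1 and 7.41, 7.33, 6.64 and 7.45 in hc24. The hc1 arrays lay above wild type throughout, a 3.01-fold rise (adjusted p = 4.39e-05). The hc24 arrays overlapped wild type, and the 1.59-fold rise (adjusted p = 0.0204) was no longer called when hc24 replicate 1, hc24 replicate 5, wild type replicate 3 or wild type replicate 5 was left out (adjusted p = 0.0557, 0.0572, 0.0645 and 0.0509).

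The remaining fbxc rises were smaller in hc1. fbxc-52 was 2.43-fold higher in hc1 and 1.86-fold higher in hc24, and fbxc-36 was 2.37-fold and 2.03-fold higher. fbxc-29, on an s-suffix probe set, was 1.78-fold and 1.53-fold higher. The brightest fbxc probe sets, those of fbxc-50, fbxc-47 and fbxc-32, were all in the rising group. fbxc-47, which lies on chromosome IV, had a mean of 9.52 ± 0.11 (SD) in wild type, against 10.12 ± 0.06 in hc1 and 10.23 ± 0.07 in hc24. It was 1.51-fold higher in hc1 (adjusted p = 1.05e-05) and 1.63-fold higher in hc24 (adjusted p = 2.98e-06). fbxc-50 had means of 10.07 ± 0.07, 10.62 ± 0.17 and 10.64 ± 0.22, with rises of 1.47-fold (adjusted p = 0.000759) and 1.48-fold (adjusted p = 0.000869). Its second probe set was at background in all groups (2.68, 2.69 and 2.69), so the rise of fbxc-50 rests on an s-suffix probe set alone.

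**Figure D2:**
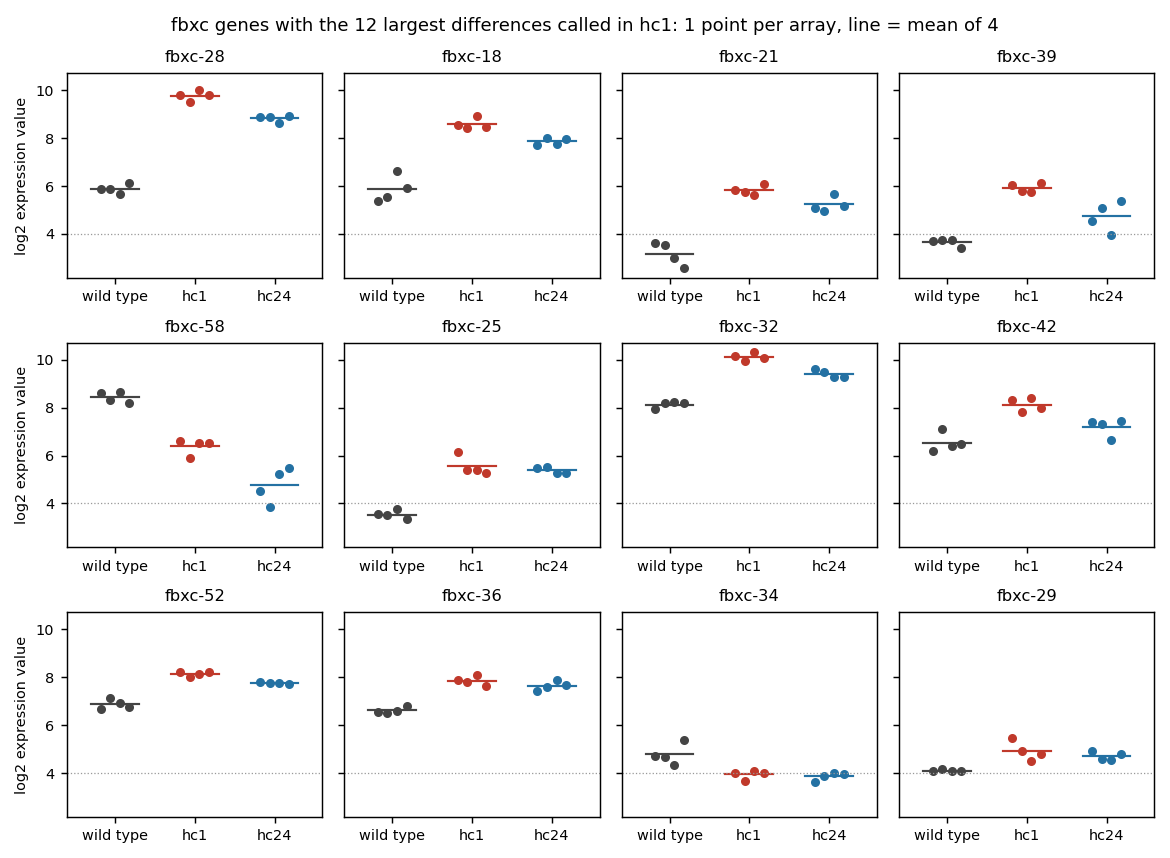
log2 expression values by genotype for the 12 fbxc genes with the largest called differences in hc1, with 1 point per array, a line at the mean of 4 arrays and a dotted line at log2 4. fbxc-28 stands highest above wild type, fbxc-21, fbxc-25 and fbxc-39 leave background in the mutants, and fbxc-58 and fbxc-34 are lower.

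The largest fbxc fall was that of fbxc-58, on chromosome IV. Its values were 8.60, 8.33, 8.66 and 8.18 in wild type, 6.61, 5.91, 6.51 and 6.51 in hc1 and 4.54, 3.87, 5.22 and 5.48 in hc24. The 3 genotypes did not overlap, in the order wild type, hc1, hc24. The fall was 4.16-fold in hc1 (log2 difference -2.06 ± 0.29, adjusted p = 5.54e-05) and 12.7-fold in hc24 (-3.66 ± 0.29, adjusted p = 4.34e-07).

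A further 3 fbxc genes were lower in both mutants, all on chromosome II. fbxc-40 read 7.86, 7.67, 7.70 and 7.69 in wild type, 7.31, 7.24, 6.82 and 6.80 in hc1 and 6.50, 6.69, 6.35 and 5.98 in hc24. The groups were separate here too, with a 1.61-fold fall in hc1 (adjusted p = 0.00153) and a 2.55-fold fall in hc24 (adjusted p = 1.02e-05). A probe set shared by fbxc-40 and K02E7.7 was not called in hc1 (log2 difference -0.28, adjusted p = 0.217) and was lower in hc24 (-0.86, adjusted p = 0.00233). fbxc-51 had means of 8.99 ± 0.21, 8.33 ± 0.18 and 8.0 ± 0.05, a 1.59-fold fall in hc1 (adjusted p = 0.000169) and a 1.99-fold fall in hc24 (adjusted p = 8.03e-06). The second fbxc-51 probe set, which has the x suffix of probes shared with other sequences, also fell, by 0.72 and by 0.88 on the log2 scale. fbxc-34 fell from 4.78 ± 0.44 to background, at least 1.72-fold in each mutant. fbxc-43 was called lower in hc1 (log2 difference -0.40, adjusted p = 0.0275) and was not called in hc24 (-0.27, adjusted p = 0.129). Its arrays overlapped, and the hc1 call was kept in 15 of 23 alternative analyses, being lost without any of wild type replicates 3, 4 and 5 or hc1 replicates 1, 2 and 6. fbxc-45 and fbxc-54 were not called in either mutant.

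Most fbxc members lie on chromosome II, with 38 of 44, and 16 of the 19 tested were there. In RefSeq gene order, taken over protein-coding genes and pseudogenes alone and without distances, rising and falling genes of that chromosome were interspersed. fbxc-28, with the largest rise, and fbxc-34, a falling gene, are neighbours among the members tested, with 2 genes between them. fbxc-40, fbxc-39 and fbxc-42 directly adjoin each other, and the first fell while the others rose.

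**Figure D3:**
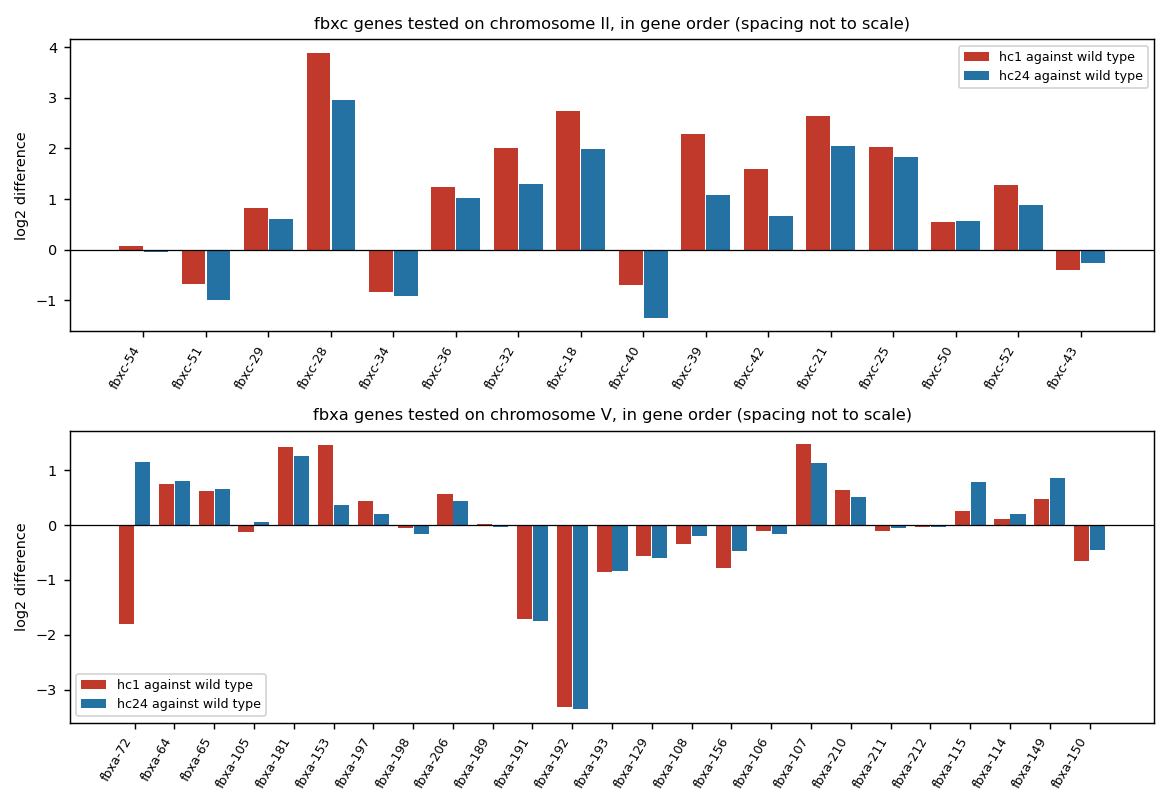
log2 differences of hc1 and hc24 against wild type for the fbxc genes tested on chromosome II (top) and the fbxa genes tested on chromosome V (bottom), drawn as bars in RefSeq gene order with spacing not to scale. On chromosome II the falling fbxc-40 adjoins the rising fbxc-39 and fbxc-42. On chromosome V the adjacent fbxa-191, fbxa-192, fbxa-193, fbxa-129 and fbxa-108 have bars below 0. The bars drawn next, of fbxa-156 and fbxa-106, are also below 0, although 65 genes lie between fbxa-108 and fbxa-156.

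Among the 48 fbxa genes tested, 17 were higher in both mutants, a count without a matched share of all probe sets. fbxa-120, on the X chromosome, rose most. It measured 6.23, 7.02, 5.46 and 6.55 in wild type, 9.08, 8.74, 8.60 and 8.94 in hc1 and 8.21, 8.17, 8.35 and 7.66 in hc24. All mutant arrays lay above wild type, with a 5.77-fold rise in hc1 (log2 difference 2.53 ± 0.27, adjusted p = 4.82e-06) and a 3.45-fold rise in hc24 (1.79 ± 0.27, adjusted p = 0.000119).

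fbxa-170, also on the X chromosome, read 6.63, 6.94, 6.51 and 6.87 in wild type, 8.74, 8.53, 8.48 and 8.81 in hc1 and 8.03, 8.16, 8.22 and 8.23 in hc24. The 3 groups were separate, and the rises were 3.74-fold in hc1 (adjusted p = 1.42e-08) and 2.68-fold in hc24 (adjusted p = 2.19e-07). The X chromosome holds 14 fbxa members, of which 3 were tested and all 3 were higher in both mutants, beside 43.3% of all probe sets in hc1 and 37.7% in hc24. The third was fbxa-179, which went from background in wild type (3.21 ± 0.49) to 4.57 ± 0.17 in hc1 and 4.44 ± 0.07 in hc24, at least 1.49-fold and at least 1.36-fold, and so passed the filter through its mutant arrays alone. Chromosome X was singled out after these values were seen. fbxa-181, on chromosome V, also left background, from 2.62, 3.22, 2.62 and 3.47 in wild type to 4.80, 4.27, 4.38 and 4.14 in hc1 and 4.69, 4.49, 4.16 and 3.63 in hc24. It was at least 1.32-fold higher in hc1 (adjusted p = 0.000282) and at least 1.18-fold higher in hc24 (adjusted p = 0.00092), and the hc24 call was lost when values under log2 4 were set to 4 (adjusted p = 0.0815). Like fbxa-179, it passed the filter through mutant arrays alone.

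fbxa-83, on chromosome IV, was at 7.69, 7.81, 7.93 and 7.94 in wild type, 9.46, 9.40, 9.40 and 9.33 in hc1 and 8.69, 8.81, 8.70 and 9.15 in hc24. It was 2.94-fold higher in hc1 (adjusted p = 5.04e-08) and 1.99-fold higher in hc24 (adjusted p = 3.47e-06), again with no overlap between any groups. fbxa-107, on chromosome V, was at 7.77, 7.81, 7.61 and 7.77 in wild type, 9.04, 9.32, 9.38 and 9.11 in hc1 and 8.93, 8.82, 8.93 and 8.82 in hc24. It rose 2.78-fold in hc1 (adjusted p = 1.52e-08) and 2.20-fold in hc24 (adjusted p = 1.81e-07). Its direct neighbour fbxa-210 rose 1.56-fold and 1.43-fold, while fbxa-211, next in the same run, was not called (log2 differences -0.11 and -0.06). A run on chromosome III held fbxa-63, fbxa-76 and fbxa-77. The hc1 calls of fbxa-63 (log2 difference 0.19) and fbxa-76 (0.29) were kept in 16 of 23 alternative analyses, as that of fbxa-13 (0.37) was in 10. The call was lost for fbxa-63 without hc1 replicate 1, hc1 replicate 5 or wild type replicate 5, and for fbxa-76 without any hc1 array or wild type replicates 3 or 6. For fbxa-13 it was lost without any wild type array, hc1 replicates 1, 2 or 6 or hc24 replicates 1 or 5. fbxa-77 was not called in either mutant.

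The 5 brightest fbxa probe sets were those of fbxa-215, fbxa-101, fbxa-210, fbxa-156 and fbxa-206, and all changed by less than 2-fold. fbxa-215 had a mean of 12.25 ± 0.13 in wild type, against 12.69 ± 0.05 in hc1 and 12.59 ± 0.08 in hc24, rises of 1.35-fold (adjusted p = 0.000203) and 1.26-fold (adjusted p = 0.00184). fbxa-101 went from 10.54 ± 0.05 to 10.87 ± 0.08 and 10.79 ± 0.11, and fbxa-206 from 8.45 ± 0.19 to 9.01 ± 0.13 and 8.89 ± 0.17. Both were called higher in each mutant, although fbxa-101 was not after cyclic loess. These 3 probe sets and that of fbxa-156 carry the s suffix. fbxa-210, whose rise is given above, went from 9.81 ± 0.10 to 10.45 ± 0.13 and 10.32 ± 0.11. fbxa-156 was the bright member that fell, 1.73-fold in hc1 (adjusted p = 5.94e-05) and 1.39-fold in hc24 (adjusted p = 0.00333). A separate probe set shared by fbxa-156 and fbxa-157 also fell in hc1, 1.61-fold (adjusted p = 0.000605), and was not called in hc24 (adjusted p = 0.062).

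**Figure D4:**
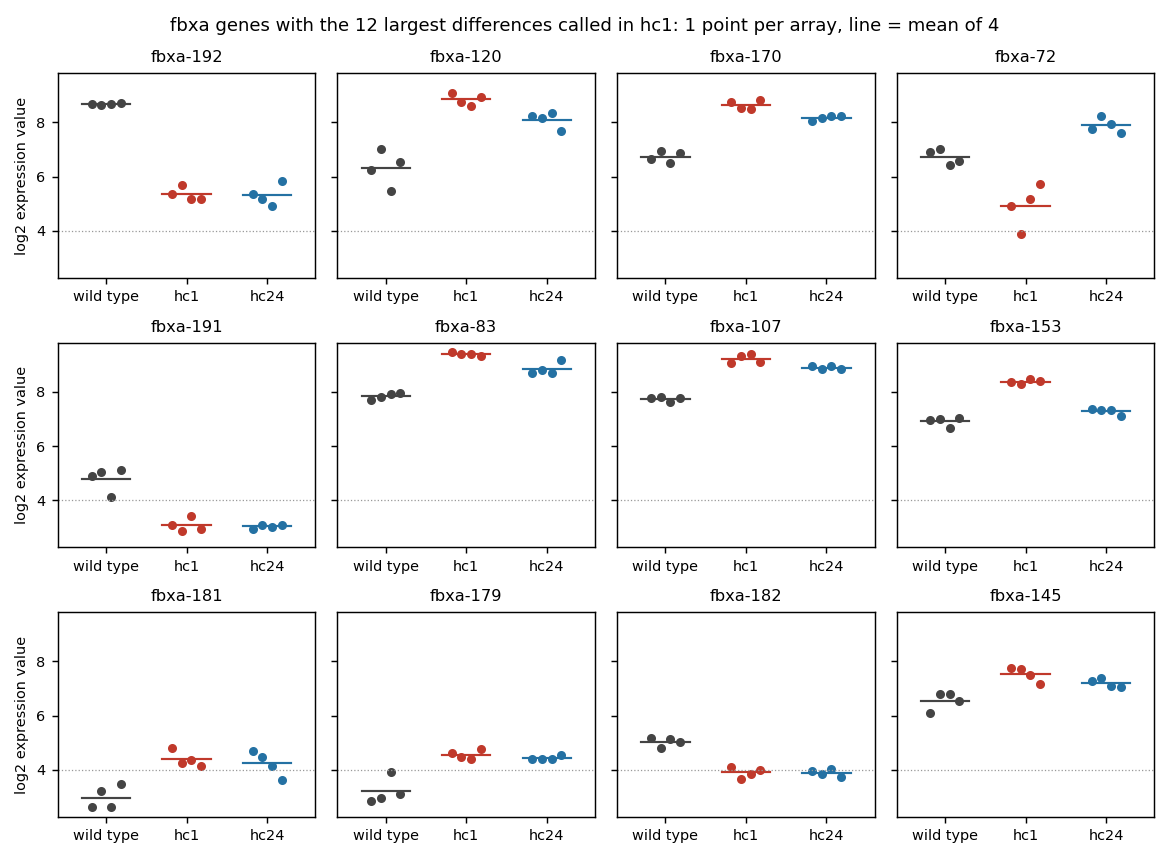
log2 expression values by genotype for the 12 fbxa genes with the largest called differences in hc1, with 1 point per array, a line at the mean of 4 arrays and a dotted line at log2 4. fbxa-192 falls to the same range in both mutants, fbxa-120 and fbxa-170 rise in both, and fbxa-72 is lower than wild type in hc1 and higher in hc24.

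The largest fbxa fall was that of fbxa-192, on chromosome V. Its values were 8.66, 8.63, 8.66 and 8.72 in wild type, 5.36, 5.70, 5.16 and 5.17 in hc1 and 5.36, 5.16, 4.90 and 5.83 in hc24. The mutants overlapped each other and were well apart from wild type. The fall was 9.98-fold in hc1 (log2 difference -3.32 ± 0.17, adjusted p = 7.05e-09) and 10.2-fold in hc24 (-3.36 ± 0.17, adjusted p = 5.87e-09).

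fbxa-192 stands in a run of 5 adjacent fbxa genes, in the order fbxa-191, fbxa-192, fbxa-193, fbxa-129 and fbxa-108. All 5 had their own plain probe set, and all were lower in hc1, where 25.9% of probe sets were. fbxa-191 fell from 4.91, 5.03, 4.13 and 5.12 in wild type to background in both mutants, where it was 3.10, 2.88, 3.43 and 2.94 in hc1 and 2.96, 3.10, 3.02 and 3.11 in hc24. That is a fall of at least 1.74-fold in each mutant (adjusted p = 6.78e-06 and 7.04e-06), in a gene that passed the filter through its wild type arrays alone. fbxa-193 was at 7.0, 7.19, 7.17 and 7.57 in wild type, 6.41, 6.30, 6.40 and 6.40 in hc1 and 6.40, 6.39, 6.40 and 6.40 in hc24, falls of 1.81-fold (adjusted p = 9.33e-06) and 1.78-fold (adjusted p = 1.56e-05). Its mutant arrays repeated nearly the same value, 7 of 8 within 0.02 of 6.40. fbxa-129 fell 1.49-fold in hc1 (adjusted p = 0.00295) and 1.51-fold in hc24 (adjusted p = 0.003), calls that were not made after median centring. fbxa-108, at the end of the run, was 1.3-fold lower in hc1 (adjusted p = 0.0223) and was not called in hc24 (adjusted p = 0.167). Its hc1 call was lost without hc1 replicate 2, hc1 replicate 6 or wild type replicate 3 (adjusted p = 0.0501, 0.0632 and 0.0642), and after median centring (log2 difference -0.09, adjusted p = 0.495). RefSeq lists fbxa-191, fbxa-193 and fbxa-129 as pseudogenes and the other members of the run as protein-coding.

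Such repeated values were seen in other members. In 8 of the 67 tested, at least 6 of the 12 arrays lay within 0.02 of a common value, among them fbxc-45 with 9 arrays at 9.13 and fbxa-77 with 9 arrays at 5.60. For these probe sets a level that stays the same across arrays may not measure how far the transcript could have fallen, which was not tested.

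Other fbxa falls lay elsewhere. fbxa-60, on chromosome III, measured 9.48, 8.90, 9.41 and 9.11 in wild type, 8.45, 8.17, 8.50 and 7.79 in hc1 and 7.48, 7.63, 7.38 and 7.56 in hc24. It was 1.99-fold lower in hc1 (adjusted p = 0.000148) and 3.27-fold lower in hc24 (adjusted p = 1.94e-06), with no overlap between groups, on a probe set with the x suffix. fbxa-182, on chromosome II, fell from 5.03 ± 0.17 to background, at least 2.04-fold in each mutant (adjusted p = 2.57e-06 and 2.80e-06), on an s-suffix probe set. fbxa-150 was 1.58-fold lower in hc1 and 1.37-fold lower in hc24. It was represented by the brighter of 2 probe sets, at a mean of 6.92, while the other was at background with a mean of 2.21.

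fbxa-72, on chromosome V, was the member called in opposite directions in the 2 mutants. It read 6.92, 7.0, 6.41 and 6.57 in wild type, 4.90, 3.90, 5.17 and 5.74 in hc1 and 7.74, 8.24, 7.92 and 7.62 in hc24. The 3 groups did not overlap. It was 3.47-fold lower in hc1 (log2 difference -1.80 ± 0.31, adjusted p = 0.000235) and 2.23-fold higher in hc24 (1.16 ± 0.31, adjusted p = 0.00628). The direct comparison of hc1 with hc24 gave a log2 difference of -2.95 (adjusted p = 1.79e-05). The lowest value was that of hc1 replicate 2, the array with the high sperm markers. Without it the differences were -1.45 in hc1 (adjusted p = 0.000113) and -2.61 between the mutants (adjusted p = 5.38e-06).

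Between the mutants, the fbxc genes were higher in hc1 wherever they differed. Of the 19 tested, 9 were higher in hc1 than in hc24 and 0 were lower, where 18.6% of all probe sets were higher and 12.2% lower. Their median log2 difference was 0.33, beside 0.07 over all probe sets. The 9 were made up of rising genes such as fbxc-28 (difference 0.94, adjusted p = 8.98e-05), fbxc-32 (0.70, adjusted p = 0.000329) and fbxc-39 (1.19, adjusted p = 0.00302), and of falling genes that fell further in hc24. Among the latter were fbxc-58 (1.61, adjusted p = 0.00129) and fbxc-40 (0.66, adjusted p = 0.00581). For fbxc-18 (0.73, adjusted p = 0.0253) the call did not hold without hc1 replicate 1, hc1 replicate 5, hc24 replicate 1 or hc24 replicate 3 (adjusted p = 0.0508, 0.0756, 0.0638 and 0.0608). For fbxc-51 (0.33, adjusted p = 0.0379) it was lost without any 1 of 7 mutant arrays, all but hc1 replicate 5, with adjusted p up to 0.101.

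Of the 48 fbxa genes tested, 6 (12.5%) were higher and 4 (8.33%) lower in hc1 than in hc24. Both shares are below those of all probe sets, 18.6% and 12.2%. The median difference was 0.02, beside 0.07 over all probe sets. fbxa-153, on chromosome V, differed most among the higher ones. It was at 6.95, 7.0, 6.67 and 7.02 in wild type, 8.35, 8.27, 8.48 and 8.40 in hc1 and 7.36, 7.33, 7.33 and 7.10 in hc24. It thus rose 2.76-fold in hc1 (adjusted p = 3.30e-08) and 1.29-fold in hc24 (adjusted p = 0.00346), and hc1 was 2.13-fold above hc24 (adjusted p = 2.78e-06). fbxa-123, a pseudogene on chromosome I with an s-suffix probe set, was 1.23-fold above hc24 in hc1 (adjusted p = 0.0143) and 1.23-fold above wild type (adjusted p = 0.00486), the latter not after cyclic loess (adjusted p = 0.159). The 4 lower in hc1 were fbxa-72, fbxa-13, fbxa-14 and fbxa-115. fbxa-13, on chromosome III, was at 5.07, 5.01, 4.96 and 5.11 in wild type, 5.40, 5.70, 5.23 and 5.30 in hc1 and 6.19, 6.54, 5.70 and 6.26 in hc24. It was 2.20-fold higher in hc24 than in wild type (adjusted p = 4.60e-05), and hc1 lay below hc24 by -0.77 (adjusted p = 0.0023), the lowest hc24 array matching the highest hc1 array. fbxa-14 (-0.40, adjusted p = 0.041) and fbxa-115 (-0.53, adjusted p = 0.0348) lost the call with single arrays left out, with adjusted p of at most 0.0972 and 0.0839. For fbxa-14 these were hc1 replicates 1, 5 and 6, hc24 replicates 1 and 5 and wild type replicates 5 and 6, and for fbxa-115 hc1 replicates 1, 5 and 6 and hc24 replicate 2. Without hc1 replicate 5 or without hc1 replicate 6 the count of fbxa genes lower in hc1 was 2.

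RefSeq lists 36 of the 171 fbxa members and 7 of the 44 fbxc members as pseudogenes. Of these, 10 fbxa and 0 fbxc were tested. In hc1, 2 of the 10 fbxa pseudogenes were higher and 3 lower, and 18 of the 38 protein-coding fbxa genes were higher and 8 lower, beside 43.3% and 25.9% of all probe sets. In hc24, fbxa-149, a pseudogene on chromosome V, was 1.81-fold higher (adjusted p = 0.0143) and was not called in hc1 (adjusted p = 0.126). fbxa-217, a pseudogene on chromosome I, was 1.31-fold higher in hc1 and 1.55-fold higher in hc24.

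The members that were not tested numbered 123 in fbxa and 25 in fbxc. Of the fbxa genes, 113 reached log2 4 on no array, and none of the other 10 exceeded 4.41. The fbxa-75 and fbxa-158 probe sets were among those at background, at 2.43 to 2.6 and 2.41 to 2.48 over the 12 arrays. Of the fbxc genes, 20 reached log2 4 on no array, and 5 did so on 1 to 3. fbxc-20 was at 5.92, 3.82, 6.21 and 5.98 in wild type, 2.95, 3.62, 3.80 and 2.91 in hc1 and 2.88, 2.94, 2.92 and 2.94 in hc24. fbxc-24 was at 5.38, 4.76, 3.94 and 4.45 in wild type and between 3.17 and 3.35 in both mutants. Both lie on chromosome II and exceeded log2 4 on wild type arrays alone. fbxc-22 exceeded it on mutant arrays alone, with 4.74 and 4.49 on 2 hc1 arrays and 4.19 on 1 hc24 array. No p-value belongs to these genes, since they failed the filter.

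Some F-box genes were measured only together with close relatives, on probe sets paired with several genes, and were not counted as members there. On chromosome IV, a probe set shared by fbxc-1, fbxc-2, fbxc-3, fbxc-4 and fbxc-5 fell from 9.38 in wild type to 8.22 in hc1 and 7.83 in hc24, which is 2.22-fold (adjusted p = 0.000157) and 2.92-fold (adjusted p = 1.92e-05). On the same chromosome, a probe set shared by fbxc-8, fbxc-9, fbxc-10, fbxc-11 and fbxc-12 rose from 3.50 to 6.94 in hc1 and 6.55 in hc24, at least 7.67-fold and at least 5.85-fold (adjusted p = 1.16e-08 and 3.44e-08). A second probe set of the same 5 genes rose from 2.76 to 6.24 and 5.14, at least 4.71-fold and at least 2.21-fold. The probe set paired with fbxc-8 alone was at 2.21 to 2.27 on all arrays. Which of the sharing genes gave the signal cannot be told apart.

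The partners of F-box proteins were taken as lists. Of 18 Skp1-related genes tested, 12 were higher and 4 lower in hc1, and 10 were higher and 6 lower in hc24. For this and the lists that follow, the shares of all probe sets are 43.3% higher and 25.9% lower in hc1 and 37.7% and 21.7% in hc24. The largest called differences were rises of skr-10, 9.38-fold in hc1 and 6.02-fold in hc24, and of skr-8 and skr-9, whose x-suffix probe sets can share signal. skr-3 and skr-4, adaptors of the intracellular pathogen response, fell, skr-3 by 0.76 and by 0.80 and skr-4 by 0.66 and by 0.84 on the log2 scale. Of 4 cullin and RING genes, 3 were higher in each mutant: cul-1, the SCF scaffold (2.17-fold and 1.61-fold), rbx-1, the RING subunit (1.57-fold and 1.46-fold), and rbx-2. cul-6 was lower, by 1.36-fold (adjusted p = 0.0075) and 1.48-fold (adjusted p = 0.00183).

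Of 10 tested genes on a list for NEDD8 and the COP9 signalosome, 10 were higher in hc1 and 9 in hc24. NEDD8 is the peptide attached to active cullins, and the signalosome removes it. The list also held ula-1, rfl-1, dcn-1 and cand-1, which encode neither. csn-4 rose 1.91-fold and 1.48-fold and ned-8 rose 1.74-fold and 1.52-fold. Of 10 other F-box genes, 5 were higher and 2 lower in hc1, and 4 were higher and 3 lower in hc24. dre-1, an F-box gene of developmental timing, fell 2.13-fold and 2.39-fold, and prom-1, which acts in meiosis, rose 1.80-fold and 1.40-fold. fog-2, the FTH-domain F-box gene of the sperm fate, was 1.29-fold higher in hc1 (adjusted p = 0.00499) and was not called in hc24 (adjusted p = 0.0931). Of 6 genes tested on a list for the intracellular pathogen response, 5 were lower and 0 higher in each mutant, and 10 more were at background on all arrays. The 5 were not the same genes in both. pals-22 was lower in hc1 alone (log2 difference -0.60, adjusted p = 0.00818), and skr-5 was called lower in hc24 alone (-0.99, adjusted p = 0.04). 4 of the 6, skr-3, skr-4, skr-5 and cul-6, were counted in the lists above. Of the 8 intestine markers, 3 were lower and 0 higher in hc1, and 6 were lower and 1, cpr-5 (1.13), higher in hc24. The 3 lower in both mutants were elt-2, asp-4 and aqp-2. Their log2 differences were -0.90 and -0.76 for elt-2, -0.47 and -0.92 for asp-4, and -1.67 and -2.42 for aqp-2. The part of the intestine markers in the falls of genes on the pathogen response list was not tested. skr-3, skr-4, cul-6 and pals-6 were lower in both mutants, and pals-6 was at least 2.6-fold lower in hc1 and 2.41-fold lower in hc24.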

How the data were processed

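The deposited table holds the authors' log2 values. Affymetrix Expression Console and GCRMA, which corrects background by probe sequence, normalizes between arrays and summarises probes, were used per the submitters' processing notes, which name no versions. The table held 22625 probe sets, 77 of them array controls. Of the rest, 20766 were paired with 1 gene by the platform annotation and 221 of these with an fbxa or fbxc gene. All 215 members matched the RefSeq table of assembly WBcel235 by Entrez ID, with 0 differing symbols. That table gave chromosomes, biotypes and gene order. The order was that of its start coordinates, over protein-coding genes and pseudogenes alone, so genes of other types may lie between members called adjacent. Distances were not used, since nothing ties the coordinates to the annotation of the array.

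Groups were taken from the titles, where samples are numbered as biological replicates. By the series' design text, the preparations used were those that correlated best within a genotype, so p-values rest on a spread that may be too small. Linear models with a mean per genotype were fitted with limma 3.58.1 (R 4.3.3) over 11833 probe sets and 12 arrays, and the fit was tested on simulated data. P-values are two-sided and adjusted by the Benjamini-Hochberg method. A group mean under log2 4 was held at 4 for folds given as "at least". For arrays, their number limits the precision. 23 alternatives were run. The members, lists, tests and naming rule were chosen with earlier results of these data known. The rule named the 6 largest rises and falls per class and comparison among called members without overlap, the brightest members, and runs of at least 3 adjacent members tested; other members named were chosen after their values were seen.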

Additional observations from a re-analysis of the deposited data

Results flagged for a closer look

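fbxa-72 moved in opposite directions in the mutants, and the difference between them was -2.95 on the log2 scale by the direct comparison of hc1 with hc24 (adjusted p = 1.79e-05).

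Single arrays stood apart from the other 3 of their group in 15 of 120 groups of 4 tested with Dixon's criterion, which chance alone meets in about 1 of 20 groups. In wild type these were fbxa-77 in replicate 6 (5.56, others 5.59), fbxc-32 in replicate 3 (7.93, others 8.19 to 8.23), fbxc-39 in replicate 6 (3.40, others 3.70 to 3.75), fbxc-40 in replicate 3 (7.86, others 7.67 to 7.70) and fbxc-47 in replicate 5 (9.36, others 9.56 to 9.59). In hc1 they were fbxa-193 in replicate 2 (6.30, others 6.40 to 6.41), fbxc-25 in replicate 1 (6.17, others 5.29 to 5.40), fbxc-51 in replicate 5 (8.06, others 8.38 to 8.44) and fbxc-58 in replicate 2 (5.91, others 6.51 to 6.61). In hc24 they were fbxa-77 in replicate 3 (5.84, others 5.59 to 5.61), fbxa-153 in replicate 5 (7.10, others 7.33 to 7.36), fbxa-179 in replicate 5 (4.55, others 4.40 to 4.41), fbxa-211 in replicate 1 (4.89, others 4.77 to 4.78), fbxc-28 in replicate 3 (8.63, others 8.89 to 8.93) and fbxc-42 in replicate 3 (6.64, others 7.33 to 7.45).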

How the results depend on the processing

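The 12 fbxc rises in hc1 were each called in all alternatives that could test them, as were 11 of the 12 in hc24, 4 of 5 and 4 of 4 fbxc falls, 13 and 17 of the 20 fbxa rises, 8 of 11 and 5 of 8 fbxa falls, and, between the mutants, 6 of 6 and 2 of 4 fbxa and 7 of 9 fbxc calls. Cyclic loess cut the fbxa rises in hc1 to 13. Median centring, which moved the median of all probe sets to 0.40 in hc1 and 0.38 in hc24, left 5 fbxa falls in hc24 and gave medians of 0.30 and 0.42 for fbxa and of 1.08 and 0.92 for fbxc; it also turned fbxa-77 in hc1 to 0.25 (adjusted p = 0.00739) and fbxa-211 in hc24 to 0.19 (adjusted p = 0.0255). Over all probe sets it called 7454 higher and 2286 lower in hc1 and 7688 and 1878 in hc24, while cyclic loess called 3185 and 4060, and 2726 and 3264. Without a filter, which adds members at background, fbxa rises numbered 75 of 171 in hc1 and 36 in hc24. Of the 44 fbxc genes, 25 rose in hc1 and 7 fell in hc24, and fbxa falls in hc1 against hc24 were 2. Over all 22548 probe sets this setting called 9059 higher and 3455 lower in hc1, and 5458 and 2798 in hc24. Between the mutants it called 1898 higher and 1328 lower. The fbxa median in hc24 was then 0.04, and the fbxc medians were 0.05, 0.04 and 0.07 in hc1, hc24 and between the mutants. Over all probe sets the medians were 0.04, 0.03 and 0.01. The stricter filter gave hc1 medians of 0.29 for fbxa and 1.24 for fbxc. With plain probe sets alone, 5 fbxa genes fell in hc24, beside 1565 of all 6826 plain probe sets tested. Leaving out each array in turn gave 2 to 5 fbxa genes lower in hc1 than in hc24. The cause of these shifts was not tested.

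With the replicate number as a replicate block, 18 fbxa genes were higher and 11 lower in hc1, and 19 and 10 in hc24, beside 12 and 4 fbxc genes in each. Of all 11833 probe sets, 4416 were then higher and 2937 lower in hc1, and 3982 and 2526 in hc24. Same-numbered arrays did not deviate together: correlations over 7 pairs ran from -0.0748 to 0.0825, so the numbers were not taken as pairs.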
